A study of Mus musculus with 19 samples.

Results

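The miRNAs described here are the mature products of the mouse miR-124, miR-9, miR-128, miR-137 and miR-138 genes. They were chosen by name, as every mouse miRNA on the array whose name has one of these 5 stems and an arm ending in -3p or -5p, and 12 of the 1079 mouse miRNAs on the array met that rule. They are mmu-miR-124-3p, mmu-miR-124-5p, mmu-miR-9-5p, mmu-miR-9-3p, mmu-miR-128-3p, mmu-miR-128-1-5p, mmu-miR-128-2-5p, mmu-miR-137-3p, mmu-miR-137-5p, mmu-miR-138-5p, mmu-miR-138-1-3p and mmu-miR-138-2-3p. The prefix for mouse is left out from here on.

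The study compared inbred mice that are inherently high-active in wheel running (C57L/J) with inbred mice that are low-active (C3H/HeJ). All mice were untreated males of 9 weeks that had been housed singly with a wheel that was locked. miRNAs were measured on 19 one-colour arrays, 10 of high-active and 9 of low-active mice. The nucleus accumbens was measured in 4 high-active and 3 low-active mice, the soleus in 4 and 2, and the EDL (extensor digitorum longus) in 2 and 4. Each strain is a single inbred line, so activity and all other differences between C57L/J and C3H/HeJ cannot be told apart. Each array carries the number of 1 mouse and tissues of a strain share these numbers, while the series' design text states that biological replicates were not used, so the p-values measure only the spread between these arrays.

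A miRNA is cut from a hairpin precursor, and one or both arms of the hairpin are kept as mature strands that lower the output of messenger RNAs matching their seed, the bases near the 5′ end. miR-124 is the classic miRNA of differentiated neurons, where it holds down non-neuronal transcripts. miR-9 is made in neural progenitors and neurons from both arms of its hairpin, miR-128 is abundant in neurons and tunes their excitability, miR-137 acts in neuronal maturation and at synapses, and miR-138 is found at dendrites, where it limits the size of spines. The nucleus accumbens is a forebrain region of the reward circuit, and the soleus and EDL are a slow and a fast hindlimb muscle.

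Several of these miRNAs come from more than 1 gene, and an array probe reads the mature strand without telling the genes apart. In the mouse annotation (RefSeq, GRCm38.p6) the 5 stems have 11 loci. Mir128-1 lies within the protein-coding gene R3hdm1 on chromosome 1, Mir128-2 within Arpp21 on chromosome 9 and Mir138-2 within Nup93 on chromosome 8. Mir124a-1, Mir124a-2, Mir9-1, Mir9-2 and Mir9-3 lie within genes of long non-coding RNA on chromosomes 14, 3, 3, 13 and 7. Mature sequences of 10 of the 12 miRNAs were found in RefSeq, and both arms of miR-124 are named only. The sequences are shown 5′ to 3′ because arms that were detected and arms that were not come from the same hairpins, and the capitals mark the seed, bases 2 to 8.
miR-9-5p: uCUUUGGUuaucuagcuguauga
miR-9-3p: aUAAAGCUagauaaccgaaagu
miR-128-3p: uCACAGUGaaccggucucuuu
miR-128-1-5p: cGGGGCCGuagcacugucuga
miR-128-2-5p: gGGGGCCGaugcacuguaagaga
miR-137-3p: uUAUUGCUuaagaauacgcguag
miR-137-5p: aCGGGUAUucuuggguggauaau
miR-138-5p: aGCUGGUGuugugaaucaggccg
miR-138-1-3p: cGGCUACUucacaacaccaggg
miR-138-2-3p: gCUAUUUCacgacaccagggu
These 10 strands hold 9 seeds. miR-128-1-5p and miR-128-2-5p are the only pair with the same seed. miR-9-5p, miR-9-3p, miR-128-3p and miR-138-5p are each made in the same form from more than 1 locus, whereas the 3p strands of miR-138 and the 5p strands of miR-128 differ between loci.

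Signals are scanner intensities, scaled between arrays by their 75th percentile and given as log2, so that a difference of 1 is a doubling. A probe was taken as detected on an array where over 50% of its spots were well above background. Each array has a lowest signal among its detected probes, and the median of these over the arrays was set as a floor, at and below which values carry no order. Probes bind with different strength, so the level of one miRNA is not set against that of another. Per array, 237 to 388 mouse miRNAs were detected, the 75th percentile of the common probes lay between 658 and 2209 intensity units before scaling, negative control spots averaged 3.18 to 6.24 units, and no spot was saturated. The arrays of the nucleus accumbens differed in signal of other tissues. In the nucleus accumbens of low-active mouse 197, the log2 of the summed signal of 15 miRNAs on a muscle list was 11.2, against 9.28 to 9.51 on the remaining 6 arrays of that tissue. Between 3 and 4 of the 15 were detected per array, and miR-133a-3p, a defining muscle miRNA, was at 9.18, against 6.64 to 6.99. miR-451a, a red cell miRNA, ranged from 10.8 to 12.2 on the high-active arrays and from 11.8 to 13.6 on the low-active arrays of the nucleus accumbens. A list of 14 epithelial miRNAs, those of the miR-200 family with miR-203 and miR-205, also divided these arrays. High-active mice 223, 225 and 227 and low-active mouse 197 had 7 to 9 of the 14 detected and a log2 of the summed signal between 12.48 and 14.31, whereas high-active mouse 224 and low-active mice 194 and 195 had 1 to 4 detected and between 8.30 and 8.59. Muscle arrays had 0 to 2 of them detected. Epithelial signal thus lay on 3 of 4 high-active and 1 of 3 low-active arrays, and the strain differences below are also given without these 4 arrays.

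In the nucleus accumbens, 9 of the 12 miRNAs were detected on all 7 arrays. These were both arms of miR-124 and of miR-9, miR-128-3p, miR-137-3p, miR-138-5p, miR-138-1-3p and miR-138-2-3p. miR-137-5p was detected on 6 arrays, miR-128-2-5p on 1 and miR-128-1-5p on none. No difference between the strains passed the test for any of the 10 miRNAs detected on at least 3 arrays.

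**Figure D1:**
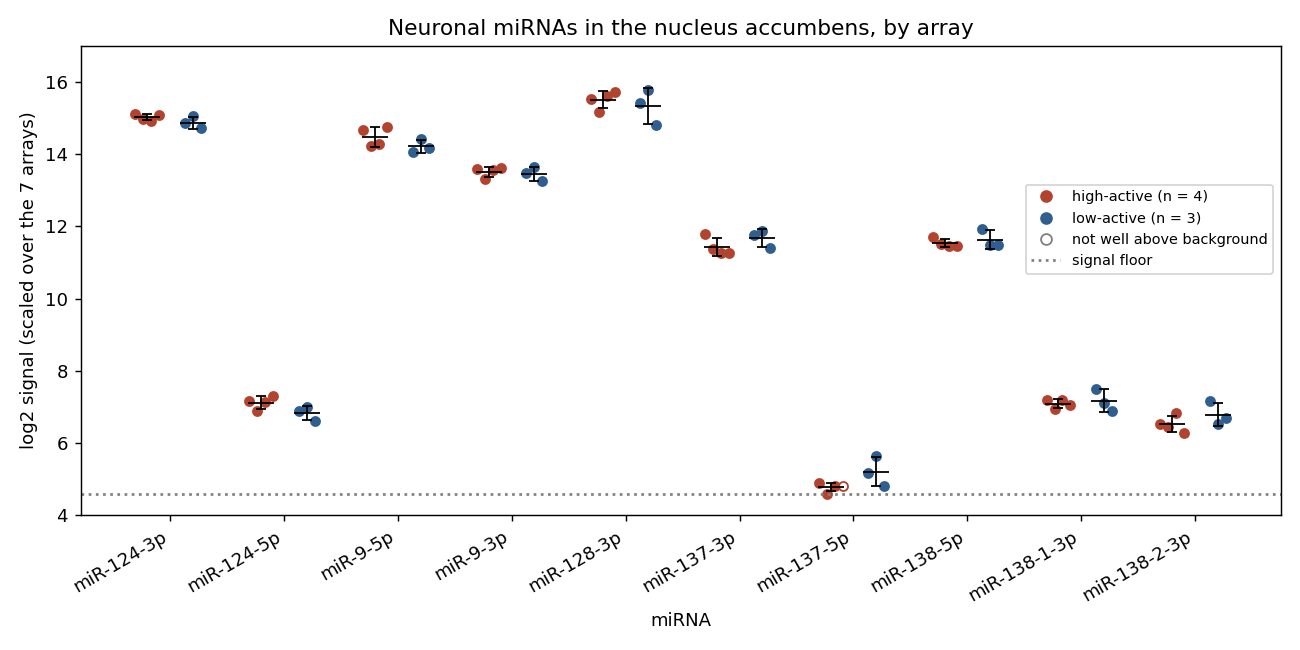
Log2 signal of 10 neuronal miRNAs in the nucleus accumbens of high-active (red, n = 4) and low-active (blue, n = 3) mice, 1 point per array, with the mean and SD in black. The dotted line is the signal floor, the open point was not well above background, and the strains overlap for each of the 10 miRNAs.

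miR-124-3p had log2 signals of 15.12, 14.98, 14.93 and 15.09 in high-active mice 223, 224, 225 and 227, against 14.85, 15.05 and 14.72 in low-active mice 194, 195 and 197. The strains overlapped, with low-active mouse 195 inside the range of the high-active mice and low-active mouse 197 lowest. The means were 15.03 ± 0.09 and 14.87 ± 0.17 (SD, n = 4 and 3), a log2 difference of 0.16 (SE 0.125, 95% confidence interval -0.13 to 0.45) with an adjusted p of 0.490 by limma with Benjamini-Hochberg adjustment over 386 miRNAs. miR-124-5p, the arm opposite, had log2 signals of 7.17, 6.89, 7.12 and 7.30 in high-active mice, against 6.88, 7.01 and 6.61 in low-active mice. Its log2 difference was 0.29 (SE 0.152, interval -0.07 to 0.64, limma adjusted p = 0.367), and again low-active mouse 197 was lowest and low-active mouse 195 lay among the high-active mice. Without low-active mouse 197 the differences were 0.08 for miR-124-3p and 0.18 for miR-124-5p.

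For miR-9-5p, the log2 signals were 14.67, 14.22, 14.29 and 14.76 in high-active mice, against 14.07, 14.42 and 14.18 in low-active mice. High-active mice 223 and 227 were the highest and the other high-active mice lay among the low-active mice, so that the difference of 0.26 (SE 0.179, interval -0.15 to 0.68) stayed within the spread between arrays (limma adjusted p = 0.441). miR-9-3p, which comes from the same 3 hairpins, had log2 signals of 13.59, 13.31, 13.56 and 13.61 in high-active mice, against 13.47, 13.66 and 13.27 in low-active mice. The highest and the next to lowest of these arrays were thus low-active 195 and high-active 224, and the difference was 0.05 (SE 0.142, interval -0.28 to 0.38, limma adjusted p = 0.835). Without low-active mouse 197 this difference was -0.05. With each array left out in turn, that of miR-9-5p ran from 0.19 to 0.40.

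Of the 9 members detected on all 7 arrays, miR-128-3p had the widest range, at 0.97. Its log2 signals were 15.53, 15.17, 15.62 and 15.71 in high-active mice, against 15.43, 15.77 and 14.80 in low-active mice, so that both the highest and the lowest array were low-active. The difference of 0.18 (SE 0.245, interval -0.39 to 0.75) did not pass (limma adjusted p = 0.708), and it was -0.09 without low-active mouse 197. The part of the muscle signal of that array in this change was not tested. Neither 5p strand of miR-128 gave a level. The brighter probe of miR-128-2-5p averaged 10.6 to 27.1 intensity units over the 7 arrays, against a 95th percentile of 10.0 to 13.4 units for negative control spots.

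miR-137-3p had log2 signals of 11.79, 11.38, 11.27 and 11.27 in high-active mice, against 11.77, 11.88 and 11.40 in low-active mice. High-active mouse 223 lay among the low-active mice and the other 3 high-active mice lay below them, and the difference of -0.26 (SE 0.184, interval -0.69 to 0.17) did not pass (limma adjusted p = 0.449). miR-137-5p lay at the edge of detection, with log2 signals of 4.88, 4.60, 4.82 and 4.82 in high-active mice, against 5.17, 5.64 and 4.82 in low-active mice, where the floor was 4.60. It had the largest difference of the 10, at -0.43 (SE 0.197, interval -0.89 to 0.03, limma adjusted p = 0.301), and only 1 of its 2 probes was detected.

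For miR-138-5p, the log2 signals were 11.70, 11.52, 11.47 and 11.46 in high-active mice, against 11.94, 11.48 and 11.49 in low-active mice. Low-active mouse 194 was the highest and the other low-active mice lay within the range of the high-active mice. Its difference was -0.10 (SE 0.152, interval -0.46 to 0.25, limma adjusted p = 0.736). Of the locus-specific 3p strands, miR-138-1-3p ranged from 6.95 to 7.20 in high-active mice and from 6.89 to 7.51 in low-active mice (difference -0.08, SE 0.166, limma adjusted p = 0.805), and miR-138-2-3p ranged from 6.28 to 6.84 in high-active mice and from 6.52 to 7.15 in low-active mice (difference -0.26, SE 0.197, limma adjusted p = 0.465). All 3 strands of miR-138 were highest in low-active mouse 194.

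Of the 10 miRNAs tested between strains in the nucleus accumbens, 0 passed and 0 had an unadjusted p under 0.05, against 6.22% of all 386 miRNAs that passed. Their log2 differences had a median of -0.01, against -0.10 over all miRNAs, with 5 above and 5 below 0. The 95% intervals of the 10 members reached at most 0.75 upward and -0.89 downward, so each lay within a doubling in either direction. Where both probes of a member were detected on most arrays, which was so for 9 members, they gave the difference the same sign.

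Leaving out the 4 arrays with epithelial signal, an alternative chosen after the data were seen, left high-active mouse 224 against low-active mice 194 and 195, where the lone array is assumed to vary like the others. On these arrays the log2 difference was 0.06 for miR-124-3p, -0.02 for miR-124-5p, 0.01 for miR-9-5p, -0.23 for miR-9-3p and -0.39 for miR-128-3p. On the 4 arrays with that signal, high-active mice 223, 225 and 227 against low-active mouse 197, these differences were 0.29, 0.54, 0.35, 0.27 and 0.78. Among these members, the sign therefore differed between the sets of arrays for miR-128-3p, miR-9-3p and miR-124-5p. Each set holds only 1 array of a strain, so only the sizes of the differences are given here. miR-137-3p gave -0.41 without and 0.00 with the epithelial signal, and miR-137-5p gave -0.76 and -0.03. In the same order, miR-138-5p gave -0.16 and 0.01, miR-138-1-3p gave -0.33 and 0.21, and miR-138-2-3p gave -0.35 and -0.18. The sign thus also differed for miR-138-5p and miR-138-1-3p. High-active mouse 224 was the only high-active array without that signal. Of the members given above by array, it had the lowest miR-124-5p, miR-9-5p, miR-9-3p, miR-128-3p and miR-137-5p of its strain. Low-active mouse 197 was the only low-active array with that signal, and it also carried the muscle signal. It had the lowest miR-124-3p, miR-124-5p, miR-9-3p, miR-128-3p and miR-138-1-3p of all nucleus accumbens arrays. The parts of the epithelial signal, the muscle signal and this single array cannot be told apart here and were not tested.

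**Figure D2:**
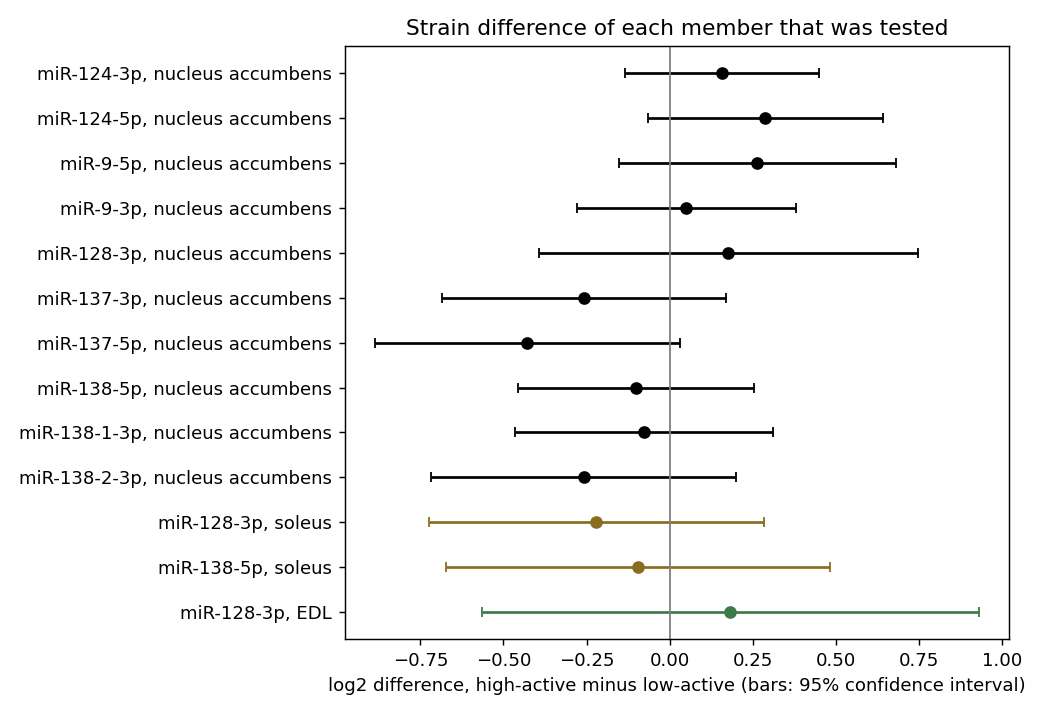
Log2 difference between high-active and low-active mice (high-active minus low-active) for each neuronal miRNA that was tested, with its 95% confidence interval, in the nucleus accumbens (black), soleus (brown) and EDL (green). Every interval includes 0.

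The arrays of the nucleus accumbens lie on 3 slides, of which 2 held both strains. Within the slide of high-active mice 223, 224 and 227 and low-active mouse 197, the difference was 0.35 for miR-124-3p, 0.51 for miR-124-5p, 0.38 for miR-9-5p and 0.67 for miR-128-3p. Within the slide of high-active mouse 225 and low-active mouse 195, the same differences were -0.11, 0.11, -0.13 and -0.15. Signs differed between the slides for 3 of them and were the same for miR-124-5p. With 1 low-active array on each of these slides, whether the differences hold within slides cannot be told. miR-137-3p gave 0.08 and -0.61 on these slides and miR-137-5p gave -0.05 and -0.82.

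The ratio of the arms asks whether the 2 strands of one hairpin differ in balance between strains. It was taken as the log2 signal of the 3p strand minus that of the 5p strand on each array, and its absolute size reflects the probes as well as the RNA, so only its change between arrays was compared. For miR-124 it was 7.95, 8.09, 7.81 and 7.79 in high-active mice, against 7.98, 8.03 and 8.11 in low-active mice. The means were 7.91 ± 0.14 and 8.04 ± 0.07 (SD, n = 4 and 3), and the difference of -0.13 did not pass a two-sided exact permutation test (p = 0.229). For miR-9 it was -1.09, -0.91, -0.72 and -1.16 in high-active mice, against -0.60, -0.76 and -0.91 in low-active mice. Means were -0.97 ± 0.20 and -0.76 ± 0.16 (SD, n = 4 and 3), with a difference of -0.21 (two-sided exact permutation p = 0.229). The test doubles the smaller tail over the 35 splits of 4 against 3 arrays, so its smallest p is 0.0571 and it could not pass 0.05. Over 4 arm ratios computed, miR-138-5p against each of its 3p strands included, the adjusted p was 0.457 for miR-124 and for miR-9 by the exact permutation test with Benjamini-Hochberg adjustment. With another background correction (normexp), the difference for miR-124 was 0.15, of the opposite sign.

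**Figure D3:**
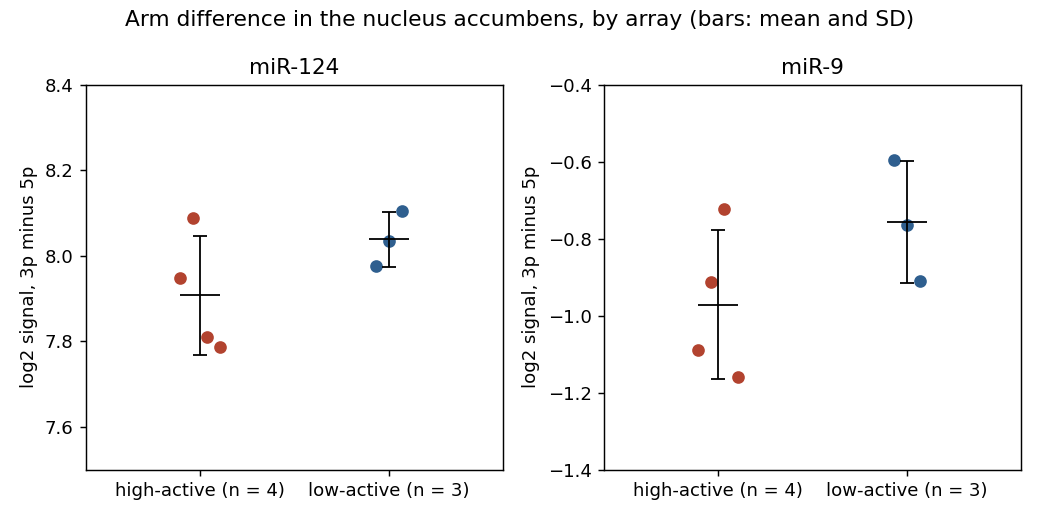
Log2 signal of the 3p strand minus that of the 5p strand of miR-124 (left) and miR-9 (right) in the nucleus accumbens of high-active (red, n = 4) and low-active (blue, n = 3) mice, 1 point per array, with the mean and SD in black. The vertical axes do not start at 0, and the strains overlap in both panels.

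Correlations of the members over the 7 arrays of the nucleus accumbens are given as a description, since these miRNAs share the same arrays and 1 scaling. Pearson's r was 0.96 between miR-128-3p and miR-9-3p, 0.87 between the arms of miR-124 and 0.82 between miR-138-5p and miR-138-1-3p, while it was -0.13 between miR-124-3p and miR-138-5p. Of the 304 other miRNAs detected on all 7 arrays, the one with the pattern most like miR-124-3p was miR-322-5p (r = 0.86), and for miR-124-5p it was miR-221-3p (r = 0.99). The closest to miR-9-5p was miR-98-5p (r = 0.96), and miR-212-5p was closest to both miR-9-3p (r = 0.95) and miR-128-3p (r = 0.985). For miR-137-3p it was miR-140-5p (r = 0.95), for miR-138-5p miR-344b-3p (r = 0.81), for miR-138-1-3p miR-299b-5p (r = 0.90) and for miR-138-2-3p miR-193b-3p (r = 0.98).

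In muscle, miR-128-3p was the only member detected on every array. Bulk tissue cannot tell fewer cells of a type from less RNA per cell, and this holds for every level given here. On the tissue's own scale, miR-128-3p in the soleus had log2 signals between 10.63 and 11.30 in 4 high-active mice, with a mean of 10.96 ± 0.28 (SD), and of 11.15 and 11.20 in 2 low-active mice. The low-active mice lay within the range of the high-active mice, and the difference of -0.22 (SE 0.197, interval -0.72 to 0.28) did not pass (limma adjusted p = 0.619). In the EDL it was 10.33 and 10.55 in 2 high-active mice, against a lowest of 9.60, a median of 10.43 and a highest of 10.58 in 4 low-active mice. Low-active mouse 195 was the low array, and the difference of 0.18 (SE 0.315, interval -0.57 to 0.93, limma adjusted p = 0.936) was -0.21 without it. On the slide that held high-active mouse 227 and low-active mouse 195 the EDL difference was 0.95, and on the slide of high-active mouse 225 and low-active mouse 197 it was -0.03.

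Residual signal of 2 further members was found in the soleus. miR-138-5p was detected in high-active mouse 227 and low-active mouse 194, with log2 signals of 5.14 and 5.06, against the floor of 4.60 on the remaining 4 arrays (limma adjusted p between strains = 0.888). Its brighter probe averaged 29.2 and 43.6 intensity units on these arrays and between 2.98 and 11.6 units on the others. miR-9-5p was detected only in low-active mouse 194, by 1 of its 2 probes, at 28.5 intensity units. No array of the EDL had a detected probe for either. Of the members tested between strains, 0 of 2 passed in the soleus, where 1.48% of all miRNAs tested did, and 0 of 1 passed in the EDL, where 0.310% did. The remaining members were not well above background on any muscle array.

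**Figure D4:**
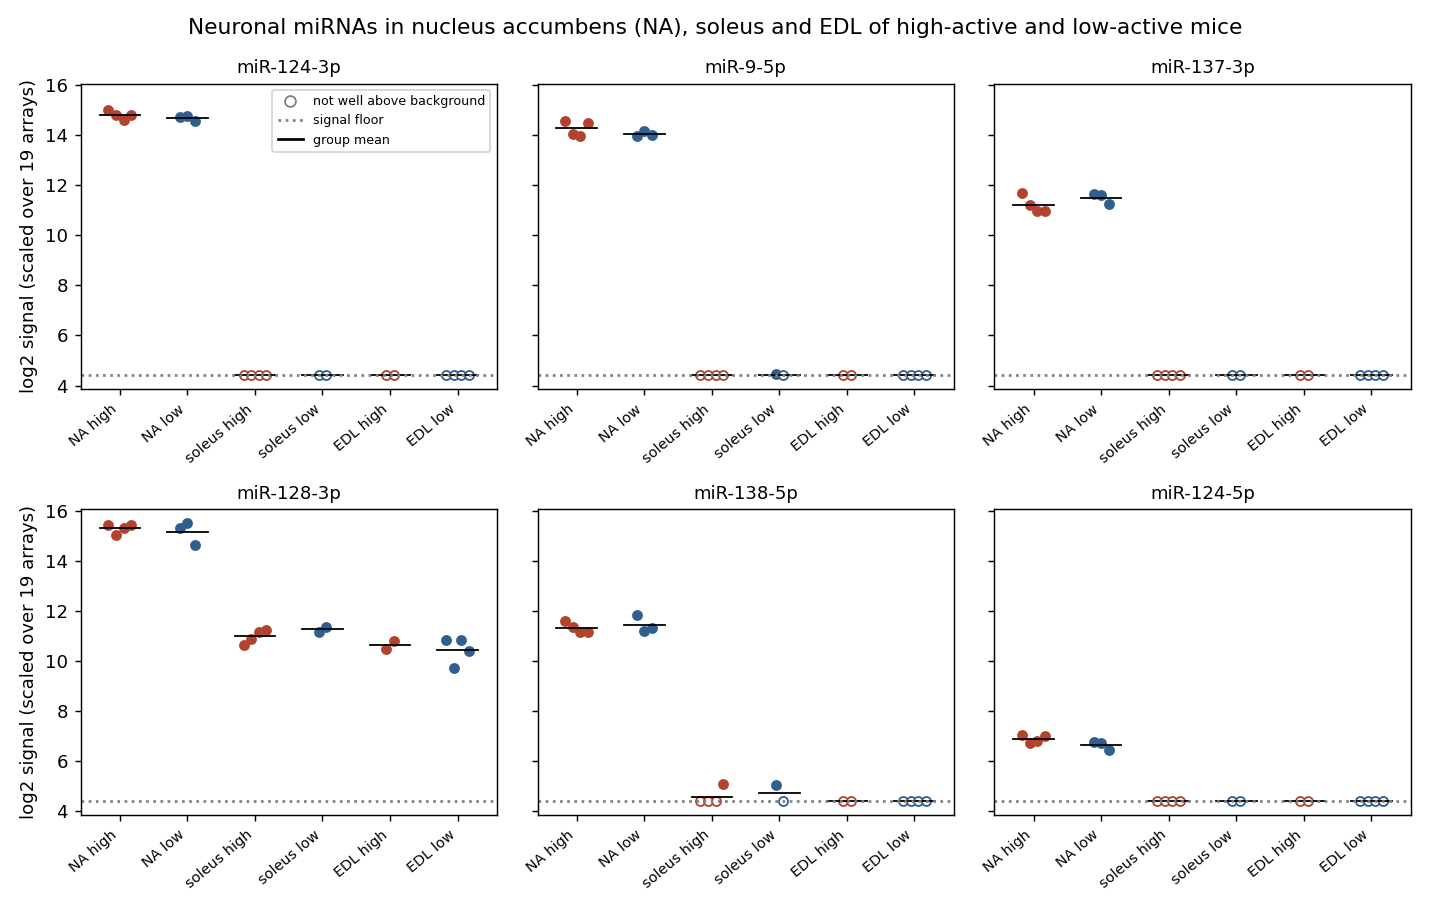
Log2 signal, scaled over all 19 arrays, of 6 neuronal miRNAs in the nucleus accumbens (NA), soleus and EDL of high-active (red) and low-active (blue) mice, 1 point per array with group means as bars. Open points were not well above background and the dotted line is the floor of 4.41, on which nearly all muscle arrays lie except those of miR-128-3p.

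To set tissues against each other, all 19 arrays were put on 1 scale and the tissue difference was averaged over the strains. miR-128-3p, measured in each tissue, was at 15.42, 15.01, 15.30 and 15.43 in the nucleus accumbens of high-active mice and at 15.31, 15.50 and 14.64 in that of low-active mice. On this scale the soleus ranged from 10.66 to 11.37 and the EDL from 9.72 to 10.82, with no overlap with the nucleus accumbens. The level in the nucleus accumbens exceeded that in the soleus by 4.09 (SE 0.194, 17.04-fold, limma adjusted p = 1.01e-11) and that in the EDL by 4.68 (SE 0.194, 25.7-fold, limma adjusted p = 1.82e-12). The soleus exceeded the EDL by 0.59 (SE 0.206, interval 0.15 to 1.03), with overlapping arrays and an adjusted p of 0.0636 by limma.

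Where all arrays of a muscle lacked a signal well above background, the muscle level has only an upper limit. It was set per array at the lowest signal of a detected probe, or the probe's own signal where that was higher. In the nucleus accumbens, miR-124-3p was higher by at least 1217-fold than in the soleus and by at least 1127-fold than in the EDL. For miR-9-3p these limits were at least 442-fold and 410-fold, and for miR-137-3p at least 115.5-fold and 107-fold. All such limits hold only for the scaling and background reported. Under the alternatives, the log2 difference from the soleus ran from 8.0 to 11.3 for miR-124-3p. It ran from 6.5 to 10.1 for miR-9-3p and from 4.6 to 8.3 for miR-137-3p. miR-9-5p was at least 745-fold higher than in the EDL, and miR-138-5p at least 109.5-fold. In the soleus, where miR-9-5p was detected on 1 of 6 arrays and miR-138-5p on 2, no limit of this kind was set. On the log2 scale over all arrays, miR-9-5p ranged from 13.95 to 14.56 in the nucleus accumbens and from the floor of 4.41 to 4.45 in the soleus, and miR-138-5p ranged from 11.16 to 11.82 in the nucleus accumbens and from the floor to 5.08 in the soleus. Neither overlapped between these tissues. The remaining limits were smaller. miR-124-5p was at least 4.84-fold and 4.49-fold higher than in soleus and EDL, miR-138-1-3p at least 5.39-fold and 5.00-fold, and miR-138-2-3p at least 3.88-fold and 3.59-fold. For miR-137-5p the same calculation gave 1.22-fold and 1.13-fold, which cannot be taken as a minimum. It was not detected on every nucleus accumbens array. Its mean of 4.55 there in high-active mice, on the scale over all arrays, lay below the EDL limit of 4.61.

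All 10 members tested passed as higher in the nucleus accumbens than in the soleus, where 48.0% of 477 miRNAs did, and all 10 passed as higher than in the EDL, where 47.8% did. miR-128-3p is the only one detected on every array of the tissues compared, and 8 of the others entered the test only through the nucleus accumbens and so had to differ, so nothing is read from these counts. The errors of members at the floor in muscle are pooled with arrays that have no spread there. miR-137-5p lost the call under 75th percentile scaling over all probes (log2 difference 0.16 from both muscles, limma adjusted p = 0.0631 and 0.0654), under quantile normalization (0.18, limma adjusted p = 0.0596 and 0.0615), under normexp background correction (0.07 from soleus and -0.02 from EDL, limma adjusted p = 0.648 and 0.895), with a minimum of 2-fold, and within high-active mice (0.15, limma adjusted p = 0.254 and 0.375).

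Between the muscles, 0 of the 10 members passed, against 16.4% of all 477 miRNAs, and 8 of the 10 were not measured in either muscle or on 1 array alone. miR-138-5p differed by 0.25 between soleus and EDL (SE 0.156, limma adjusted p = 0.367). The call of miR-128-3p turned on single arrays. It passed without the nucleus accumbens array of low-active mouse 197 (limma adjusted p = 0.0435), without the soleus array of high-active mouse 223 (0.0466) and without the EDL array of low-active mouse 194 (0.0450) or 196 (0.0447), and with 50th percentile scaling (log2 difference 0.75, limma adjusted p = 0.0437).

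Whether the strain difference in the nucleus accumbens departs from that in both muscles was tested as an interaction over all 19 arrays, and 0 of 10 members passed, against 8.81% of all 477 miRNAs. Only for miR-128-3p is this a contrast of measured levels throughout, and its value was 0.18 (SE 0.329, interval -0.52 to 0.89, limma adjusted p = 0.815). The other 9 were at the floor on all or most muscle arrays, so their interaction repeats the difference in the nucleus accumbens with an error pooled over arrays that have no spread, and nothing is read from it. On which side of the threshold miR-137-5p fell changed with single arrays (the nucleus accumbens of high-active mouse 223 or low-active mouse 197 and the EDL of low-active mouse 195), that of miR-137-3p with high-active mouse 223, and that of miR-124-5p with the scaling.

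Other brain-enriched miRNAs on a list chosen beside the members numbered 50 on the array. In the nucleus accumbens 33 of them were tested between strains, of which 1 rose and 3 fell in high-active mice, where 6.22% of all miRNAs passed, with a median log2 difference of -0.20, against -0.10 over all miRNAs. Of 35 tested between tissues, 31 were higher and 2 lower in the nucleus accumbens than in the soleus, where 48.0% of all miRNAs were higher. The median log2 difference was 2.99, against 0.21 over all miRNAs. Only 5 to 8 of the 50 were detected per muscle array. Those not detected in muscle entered the test only through the nucleus accumbens and so had to differ, so nothing is read from this count or median. In the interaction 0 of the 35 were higher and 8 lower, where 8.81% of all miRNAs passed in either direction. For those at the floor in muscle it repeats the difference in the nucleus accumbens with an error pooled over arrays without spread. Nothing is read from this count either. The 4 with the highest signal were miR-129-2-3p, miR-132-3p, miR-129-1-3p and miR-338-3p. miR-129-2-3p and miR-129-1-3p were, like miR-124, not detected on any muscle array, whereas miR-132-3p, an activity-induced miRNA of neurons, was detected on 11 of the 12 and miR-338-3p, known from oligodendrocytes, on 12. miR-338-3p averaged 11.20 ± 0.07 in high-active and 10.56 ± 0.24 in low-active mice (SD, n = 4 and 3), a log2 difference of 0.64 (SE 0.139) that passed the test between strains (limma adjusted p = 0.0377). This difference was 0.74 without the arrays that have epithelial signal and 0.36 on those arrays alone. Each of these sets holds only 1 array of a strain, so only the sizes are given. miR-129-2-3p had a difference of -0.53 (SE 0.167, limma adjusted p = 0.138).

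Over all 19 arrays, the miRNAs with the pattern most like miR-124-3p were miR-496a-3p, miR-379-3p and miR-541-5p, each with a Pearson's r of 1.00. This likeness is set by the tissues alone. The 3 miRNAs ranged from 7.76 to 8.28 in the nucleus accumbens and were at the floor on all 12 muscle arrays, as miR-124-3p was.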

How the data were processed

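RNA was labelled with Cy3 and hybridised to Agilent mouse miRNA arrays, and the deposited scanner files hold the intensity of each spot, background-subtracted by the authors' Feature Extraction software (version 10.7.1.1) without normalisation from array to array. A deposited series table gives log2 values, shifted per array by a percentile by the authors, and its rows have a median of 0 over the arrays of each tissue (600, 600 and 1157 rows valued in nucleus accumbens, soleus and EDL). Under its older names, 9 members matched the scanner files to within 0.01, and it served as an alternative only.

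From the spot intensities, outlier spots were dropped and processed signals averaged per probe (2889 probes). For scaling, each array's 75th percentile was taken over the probes that every array of a fit detected (594, 456 and 417 probes in nucleus accumbens, soleus and EDL, and 328 over 19 arrays) and signals were floored at the median of the lowest detected signals and taken to log2. Each miRNA took its brightest probe. Strains were compared per tissue with limma 3.58.1 in R 4.3.3 with a minimum of 3, 2 and 2 arrays with a detected probe. Tissues and the interaction were fitted over 6 group means, on at least 2 arrays. Calls used a Benjamini-Hochberg adjusted p under 0.05. Scripts were tested on simulated data.

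The methods name GeneSpring and a moderated test with a 2-fold minimum, and the files give no mean signal per spot, so normexp used median signals. Alternatives were scaling, background, floor, filter, probe summary, slide, mouse and each array left out, and, added after the data were seen, arrays with at least 5 of 14 epithelial miRNAs detected, left out or taken alone. The mouse number was checked as a pairing of tissues: over 15 pairs of arrays of 1 mouse, the correlation of deviations from group means ran from -0.49 to 0.53, and 6 were over 0.1. All 12 members are named, with the miRNA most alike to each, the 3 most like miR-124-3p over all arrays and the 4 brightest of the other brain list. Members and lists were chosen with earlier results of these data known. Arrays that the authors dismissed are not analysed here. The number of arrays limits the precision.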

Additional observations from a re-analysis of the deposited data

Results flagged for a closer look

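miR-9-3p in the nucleus accumbens of high-active mouse 224 had a log2 signal of 13.31 (13.305 before rounding), apart from the other 3 high-active mice by more than Dixon's 95% limit for 4 arrays. It was the only one of 13 checks of this kind to stand out, and chance gives about 1 in 20. This was also the only high-active array of the nucleus accumbens with under 7 of 14 epithelial miRNAs detected, whose part was not tested.

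The deposited signal per miRNA, which the comparisons above did not use, was high for 3 members at or near the floor in the nucleus accumbens. It reached 3893 for miR-137-5p, 5307 for miR-128-2-5p and 5297 for miR-128-1-5p, although the probe means of these miRNAs summed to at most 56.1, 46.4 and 18.2 intensity units. For miR-137-5p, the deposited signal equalled the probe total of miR-137-3p, alone or with probe totals of its own, on 7 of 7 arrays at a tolerance of 0.02 intensity units. For miR-128-2-5p it equalled its own total on 2 of 6 arrays marked as detected and involved that of miR-127-3p in the same way on 1. In muscle, the signal of miR-138-5p held the total of miR-136-5p in the soleus of high-active mouse 227 and in the EDL of low-active mouse 197. That of miR-128-2-5p held the total of miR-127-3p in the EDL of low-active mice 194 and 196. For the 9 members detected on all 7 arrays, the deposited signal was 0.362 to 0.376 times the summed probe means.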

How the results depend on the processing

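No member passed between strains in any tissue under any alternative, and the counts over all miRNAs ran from 0 to 38 in the nucleus accumbens, 0 to 51 in the soleus and 0 to 9 in the EDL, against 24, 5 and 1 in the analysis reported. Without scaling, calls in the nucleus accumbens split 3 higher and 1 lower, and with 75th percentile scaling over all probes 7 and 12, against 4 and 20. With 1 array left out these counts ran from 8 to 30, 0 to 10 and 0 to 4. Over all miRNAs, calls against the soleus split 191 higher and 200 lower with that scaling, against 229 and 151, calls between the muscles 57 and 2 without scaling, against 34 and 44, and calls in the interaction 38 and 6 without scaling, against 3 and 39. Between the muscles and in the interaction 16 to 95 and 0 to 49 miRNAs passed, and 31 to 89 in the interaction with an array left out. Against the soleus and the EDL, 9 to 12 and 9 to 11 members passed under the alternatives, and 10 in each with any 1 array left out. Counts above 10 arose with the deposited signal per miRNA. That signal was high for the 5p strands of miR-128 although their probes lay at or near the floor, so nothing is read from these added calls. Between the muscles 1 member passed under 50th percentile scaling, and 0 to 1 with an array left out. In the interaction 1 passed under 75th percentile scaling over all probes, 50th percentile scaling and no scaling, and 0 to 2 with an array left out. With mouse as a random replicate block (correlation 0.09) or a fixed one, 10, 10, 0 and 0 members passed in the 4 tissue comparisons, so the replicate block changed no call.

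Signs of small strain differences turned in the nucleus accumbens for miR-138-5p and miR-138-1-3p with 75th percentile scaling over all probes (0.119 and 0.143), the 50th percentile (0.002 and 0.026), no scaling (0.283 and 0.307) and slide as a block (0.038 and 0.134), and without scaling for miR-137-3p (0.126, also in the interaction) and miR-138-2-3p (0.124). With 1 array left out, miR-138-5p ran from -0.171 to 0.054 and miR-138-1-3p from -0.212 to 0.094, with the highest without low-active mouse 194. miR-9-3p ran from -0.045 to 0.181, miR-128-3p from -0.085 to 0.431 and its interaction from -0.071 to 0.342, with the lowest without low-active mouse 197. Without the arrays with epithelial signal, miR-124-5p was at -0.021, miR-9-3p at -0.225 and miR-128-3p at -0.393. On those arrays only, miR-138-5p was at 0.009 and miR-138-1-3p at 0.208. In the soleus, 75th percentile scaling over all probes gave 0.03 for miR-128-3p and 0.027 for miR-138-5p. For miR-138-5p normexp gave 0.085 and the deposited signal per miRNA 0.179 (SE 1.441). That deposited signal held the total of miR-136-5p in the soleus of high-active mouse 227. In the EDL miR-128-3p ran from -0.206, without low-active mouse 195, to 0.288. Normexp also turned miR-137-5p against the EDL (-0.018), miR-138-5p between the muscles (-0.076) and the arm difference of miR-124 (0.147). With an array left out, arm differences ran from -0.19 to -0.09 for miR-124 and from -0.297 to -0.134 for miR-9. The causes were not tested. Leaving out 1 of 2 arrays of a group assumes that the lone array varies like the others. Levels near the floor limit miR-137-5p and the muscle levels of all members but miR-128-3p.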
